A study of Mus musculus with 24 samples.

Results

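The frontonasal and maxillary processes are the prominences that build the upper face. Promoter contacts of cranial neural crest cells from both were compared in 4 of the series' 24 mouse libraries. FNP at E11.5 from wild-type (WT) embryos, with 2 libraries, was set against Mx at E11.5 from WT embryos, also with 2 libraries. FNP and Mx are the tissue names in the labels, which do not spell them out; embryologists commonly use them for the frontonasal and maxillary processes. Libraries of the same tissues from Ezh2cKO embryos at E11.5, 2 of FNP and 2 of Mx, were used for reading the same contrast in other embryos. Ezh2cKO is a conditional knockout of Ezh2, the histone H3 lysine 27 methyltransferase of Polycomb repressive complex 2. WT libraries of Md and PA2 at E11.5, the labels' names for tissues taken as the mandibular process and second pharyngeal arch, were used to place the values. The test took its spread from all 24 libraries, which also gave the ranges over the series. The others were WT progenitors at E8.5 and, at E11.5, Ezh2cKO Md and PA2 and deletion embryos. The deletions were labelled Hoxa2PTE-36kb-del, in Md and PA2, and Hoxa2PTE-42kb-del, in PA2. Per the labels' protocols, chromatin was cross-linked and neural crest cells were isolated by fluorescence-activated sorting, from Ezh2cKO embryos and from embryos with Wnt1::Cre and a ROSA-RFP allele. Wnt1::Cre drives recombination in the neural crest lineage, and a ROSA-RFP reporter marks the recombined cells. The labels leave unsaid whether the WT embryos are those with Wnt1::Cre and ROSA-RFP, how many embryos were pooled, and which driver removed Ezh2. The titles call the 2 libraries of each group biological replicates, and p-values measure only the spread between such libraries.

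Cranial neural crest cells arise at the dorsal neural tube and migrate into the face, where they form most of its skeleton and connective tissue. Cells in each prominence keep an open choice of fates until local signals set which homeobox and forkhead genes are active, and those genes lie in large domains with enhancers far from their promoters. Promoters of silent developmental genes are often covered by Polycomb complexes, and such promoters can contact each other over long distances. In promoter capture Hi-C, cross-linked chromatin is cut with the restriction enzyme HindIII and ligated, and ligation products that hold a promoter fragment, called the bait, are enriched with probes. A call is a pair of fragments that a statistical caller scored above its library's own background. The lists analysed here hold pairs with a score of at least 5.

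The 4 libraries were of similar size. FNP replicates 1 and 2 held 172292 and 168670 called pairs, against 168794 and 176164 in Mx replicates 1 and 2. The range over all 24 libraries was 142284 to 190343. Pairs on 1 chromosome (cis) numbered 166756 and 163687 in FNP, against 163068 and 170751 in Mx. Pairs between chromosomes (trans) made up 3.21% and 2.95% of calls in FNP and 3.39% and 3.07% in Mx. Pairs that joined 2 baits made up 14.34% and 14.64% in FNP and 14.08% and 14.30% in Mx, where the groups did not overlap but nearly touched. An exact two-sided permutation test of that share gave p = 0.333, the smallest p that 2 libraries against 2 allow, so no library measure could pass a threshold of 0.05. The median cis distance was 466 and 443 kb in FNP and 451 and 456 kb in Mx, with overlapping groups. Contacts between baits of developmental genes, counted in trans or at 100 kb or more, numbered 101 and 125 in FNP and 119 and 125 in Mx. Read depth was unknown.

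The libraries did not group by tissue label. The share of cis pairs that 2 libraries had in common (Jaccard index: pairs called in both over pairs called in either) was 0.306 between the FNP replicates and 0.306 between the Mx replicates. It was 0.340 between FNP replicate 1 and Mx replicate 2, and 0.341 between FNP replicate 2 and Mx replicate 1. The remaining combinations, FNP 1 with Mx 1 and FNP 2 with Mx 2, gave 0.3001 and 0.313. Over the 20 other pairs of WT E11.5 libraries from different tissues the index ran from 0.294 to 0.310. Replicates of Md shared 0.330 and replicates of PA2 shared 0.354. In each of the 4 libraries, the library with the most calls in common, out of all 24, was 1 of the other tissue and the other replicate number. A batch effect could not be fitted, because no batch label is shared by any libraries, the crossed ones included.

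The crossed likeness was present in every distance class and, as a ratio, was largest for the longest contacts. For cis pairs 10 Mb or more apart, the index was 0.0389 between FNP 1 and Mx 2 and 0.0393 between FNP 2 and Mx 1. It was 0.0195 between the FNP replicates and 0.0206 between the Mx replicates, within or just below the 0.0197 to 0.0222 seen between other WT tissues. Trans pairs gave 0.222 and 0.218 in the crossed combinations, against 0.199 and 0.198 within FNP and within Mx. Pairs called in exactly 2 of the 4 libraries followed the same division. FNP 1 with FNP 2 held 7260 such pairs and Mx 1 with Mx 2 held 7745, whereas FNP 1 with Mx 2 held 14916 and FNP 2 with Mx 1 held 13355. The cause was not tested. The test of calls per bait treated the 4 libraries as independent and held no term for this likeness. In what follows, FNP and Mx mean the libraries that carry those labels, and no sample was moved to another group. Whether each label matches its tissue cannot be settled from these values, and a wrong label would make every FNP and Mx contrast given here a mixture of tissues.

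**Figure D1:**
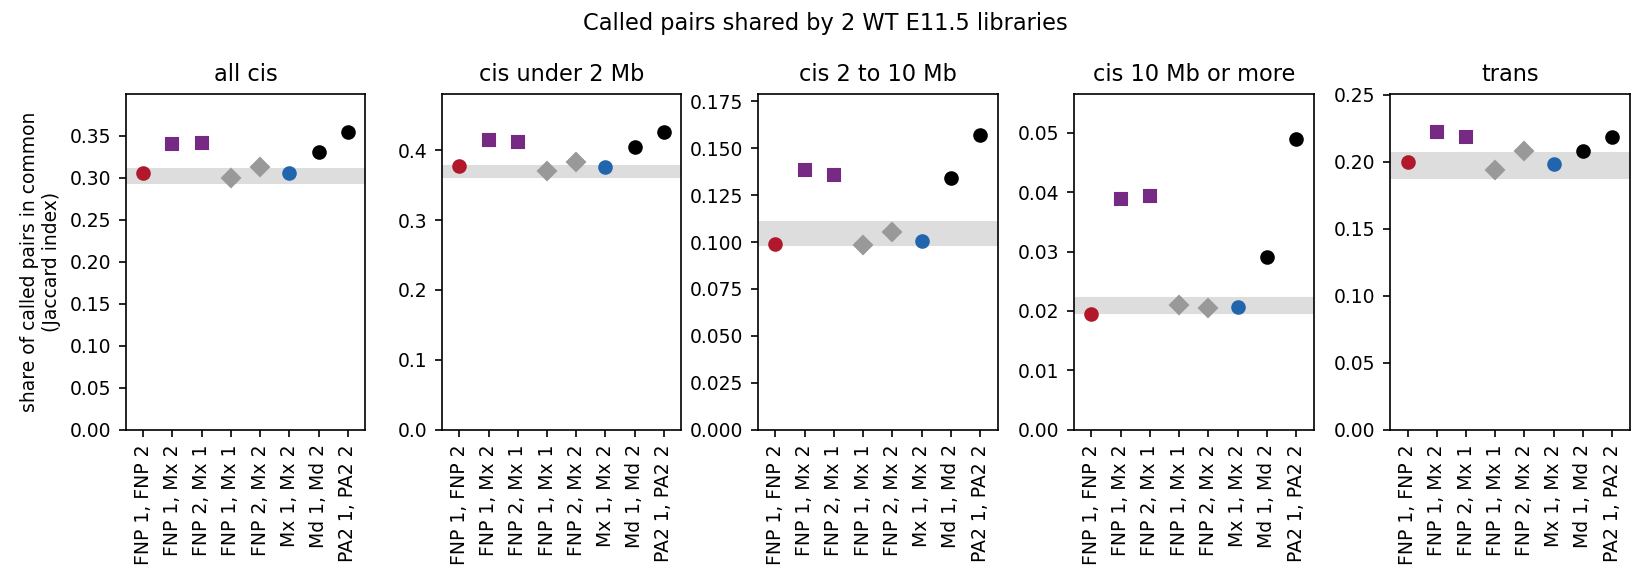
Share of called pairs in common (Jaccard index, from 0) for pairs of WT E11.5 libraries, with 1 panel for all cis pairs, 3 for cis distance classes and 1 for trans pairs. Red and blue circles are FNP and Mx replicates, purple squares the crossed FNP and Mx combinations, grey diamonds the other FNP and Mx combinations, black circles Md and PA2 replicates, and the grey band is the range of the 20 other pairs of different WT tissues; the purple squares lie above the red and blue circles in every panel.

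**Figure D2:**
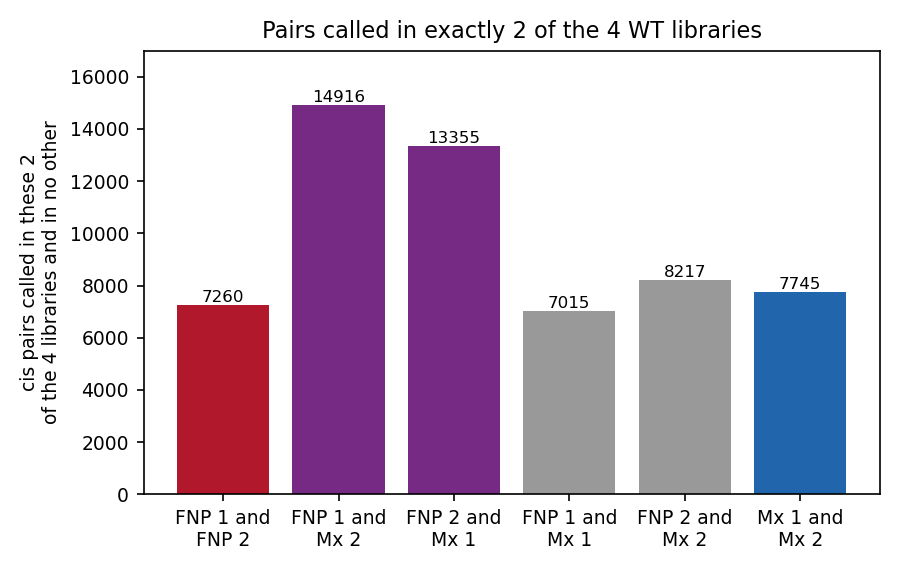
Number of cis pairs called in exactly 2 of the 4 WT libraries, for each combination of 2 libraries (bars start at 0). The crossed combinations hold 14916 and 13355 pairs, against 7260 in the FNP replicates and 7745 in the Mx replicates.

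In a further check of the labels, pairs of the Ezh2cKO libraries were read in the WT libraries. In Ezh2cKO embryos 8342 pairs were called in both FNP libraries and in neither Mx library, and 12191 in both Mx libraries and in neither FNP library. Of the first set, FNP WT replicates 1 and 2 called 32.6% (exact 95% interval 31.6 to 33.6) and 33.0% (32.0 to 34.0). Of the second set they called 32.3% (31.4 to 33.1) and 33.1% (32.3 to 34.0). The ratio of the shares was 1.01 and 0.995 in the FNP libraries. It was 0.927 and 1.04 in Mx replicates 1 and 2, 0.896 and 0.898 in Md, and 0.901 and 0.905 in PA2. Of these 8 WT libraries, Mx replicate 2 had the highest ratio, and Mx replicate 1 was the one of the 4 nearest to Md and PA2. The intervals cover counting error only, and pairs of 1 bait are not independent. The Ezh2cKO libraries were themselves hardly separated by tissue. Their Jaccard index of cis pairs was 0.311 between FNP replicates, 0.318 between Mx replicates and 0.306 to 0.317 between FNP and Mx. For that reason the ratios cannot settle whether a label matches its tissue.

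No promoter fragment passed the test for a difference between FNP and Mx. Calls of each bait were divided by the library's total cis calls, and the 10275 baits that averaged 5 or more calls over the 4 libraries were tested on the log2 scale with limma and Benjamini-Hochberg adjustment. The count past an adjusted p of 0.05 was 0 baits higher in FNP (0%) and 0 lower (0%), and the smallest adjusted p was 0.220. At an unadjusted p under 0.05 there were 179 higher (1.74%) and 198 lower (1.93%). Baits whose FNP and Mx libraries did not overlap numbered 1602 higher (15.6%) and 1712 lower (16.7%). The median difference was 0.0086 log2 units, its median standard error 0.39, and the median 95% interval reached 0.81 to each side. The interval lay within a 2-fold difference in both directions for 43.0% of the tested baits and reached past it on at least 1 side for the others.

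Genes that pattern the frontonasal process include Msx2, Msx1, Alx1, Alx4, Six2, Zic1, Zic2 and Pax3, which encode homeobox, zinc-finger and paired-box transcription factors, and Crabp1, which encodes a retinoic acid-binding protein. All 12 genes of this list had a bait and 10 baits had enough calls for the test. No bait of the 10 passed, 2 had non-overlapping groups with scaled calls higher in FNP (15.6% of all baits did) and 0 had them lower (16.7% of all baits did), and 8 differences were above 0. Their median difference was 0.14 log2 units in WT, beside 0.0086 over all tested baits. The same baits had a median of 0.41 in Ezh2cKO.

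The Msx2 bait had 39 and 27 called cis interactions in FNP and 18 and 24 in Mx. Both FNP libraries were above both Mx libraries, by 0.64 log2 units (standard error 0.26, limma adjusted p = 0.999). The Ezh2cKO libraries do not enter that difference, but they share in its estimate of spread. They had 35 and 45 calls in FNP and 24 and 22 in Mx, a difference of 0.91 (standard error 0.26, limma adjusted p = 0.449). Fewer calls were made in the other WT tissues at E11.5, with 17 and 15 in Md and 9 and 9 in PA2. Msx2 encodes a homeobox factor of skull and face growth. Its difference did not differ detectably between genotypes (adjusted p of the difference 1.00, interval of the WT difference 0.10 to 1.19).

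Alx1, a paired-type homeobox gene needed for the mid-face, had 27 and 22 calls in FNP and 16 and 24 in Mx, with overlapping groups, on a fragment that also holds the start of Gm34298. Its difference was 0.32 ± 0.57 log2 units (standard error). The gap to Md and PA2 was wider, since Md had 11 and 11 calls and PA2 had 5 and 3. Alx4, a close relative of Alx1, had 35 and 47 calls in FNP and 37 and 31 in Mx, and 17, 16, 15 and 18 in the Md and PA2 libraries. In both genes, FNP and Mx libraries were all above the Md and PA2 libraries, and FNP and Mx were not separated from each other.

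Six2, a homeobox gene of the mid-face, had 32 and 40 calls in FNP and 29 and 39 in Mx, and Zic2 had 49 and 55 in FNP and 48 and 47 in Mx. Zic1 differed by 0.14, Msx1 by 0.03 and Crabp1 by -0.09. Pax3, a paired-box gene of early neural crest, had 45 and 57 calls in FNP and 77 and 50 in Mx, with 1 Mx library above all the others. Pax7 had too few calls for the test.

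The maxillary list holds LIM-homeobox, Dlx and T-box genes of the upper jaw and palate, and 11 of its 12 genes had a bait. No bait of the 11 passed the test. In calls scaled to the library total, none had both FNP libraries below both Mx libraries, and 3 had both above, for Tbx22, Dlx2 and Lhx8 (15.6% of all baits had both above). The median difference was 0.03 log2 units in WT and -0.15 in Ezh2cKO.

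Lhx6 and Lhx8 encode LIM-homeobox factors of the oral side of the first arch. Lhx6 had 26 and 13 calls in FNP and 29 and 24 in Mx, a difference of -0.49 ± 0.39 log2 units with overlapping groups. In Ezh2cKO it had 15 and 8 calls in FNP and 24 and 28 in Mx, and there FNP was below Mx in every library (-1.07 ± 0.39, limma adjusted p = 0.587). Lhx8 had 30 and 28 calls in FNP and 27 and 28 in Mx. Its 4 libraries lay within 3 calls of each other, and FNP 2 and Mx 2 had the same count.

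Dlx2, a homeobox gene that marks both jaws, had 16 and 19 calls in FNP and 12 and 11 in Mx. In Ezh2cKO the order was opposite, with 7 and 4 calls in FNP and 13 and 10 in Mx. The difference between genotypes did not pass (limma adjusted p = 0.972). Dlx1, its neighbour, had 14 and 8 calls in FNP and 10 and 11 in Mx. Tbx22, a T-box gene of palate formation on the X chromosome, had 7 and 8 calls in FNP and 3 and 5 in Mx, at a low level. Pou3f3, Pax9, Barx1, Osr2, Meis2 and Shox2 differed by -0.17 to 0.09 log2 units, with overlapping groups. Pax9, which is required for tooth and palate, was the bait with the most calls of the list, with 80 and 87 in FNP and 81 and 77 in Mx.

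**Figure D3:**
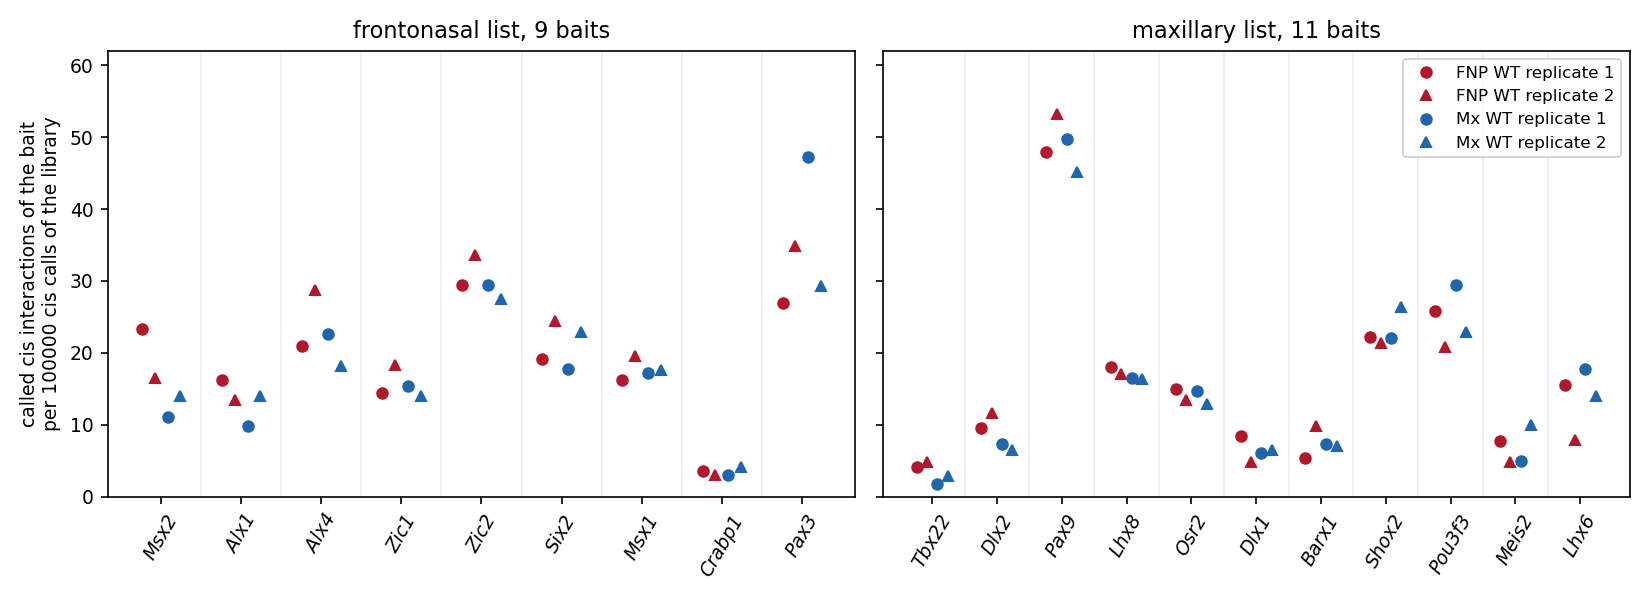
Called cis interactions per 100000 cis calls of the library for 9 tested baits of the frontonasal list and the 11 of the maxillary list, ordered by the difference, with each point 1 library (red FNP, blue Mx, circles replicate 1, triangles replicate 2). Msx2, Tbx22, Dlx2 and Lhx8 have both red points above both blue points, and no gene drawn has both below.

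Among baits of the mandibular list, 12 were tested; on scaled calls both FNP libraries were below both Mx libraries for 3 and above them for 1, beside 16.7% and 15.6% of all baits. Pitx1, a homeobox gene of the oral and mandibular region and the hindlimb, had 6 and 7 calls in FNP and 12 and 12 in Mx, a difference of -0.83 ± 0.29 log2 units (adjusted p = 0.999). Ezh2cKO libraries gave 6 and 7 calls in FNP and 18 and 10 in Mx (-0.86 ± 0.29). Md and PA2 had 11, 14, 16 and 13 calls, so the FNP libraries of both genotypes were below every Mx, Md and PA2 library given here. Dlx6, a homeobox gene of lower-jaw identity, had 55 and 47 calls in FNP and 69 and 68 in Mx (-0.41 ± 0.18), but in Ezh2cKO 59 and 56 in FNP and 68 and 60 in Mx, with a scaled difference of -0.02. Edn1, which encodes the endothelin signal for lower-jaw fate, had 11 and 12 calls in FNP and 9 and 5 in Mx.

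No bait of any of the 15 lists passed the test. Over all tested baits, 15.6% had both FNP libraries above both Mx libraries on scaled calls and 16.7% had both below. Of 41 Hox baits, 5 were above and 7 below; Hoxb9, a gene of the trunk that cranial crest normally keeps silent, had 16 and 10 in FNP and 23 and 20 in Mx. Of 63 baits of other developmental patterning genes, 2 were above and 16 below. Their median difference was -0.05 log2 units, over a range of -1.27 to 0.37. Lists of cofactor and retinoid genes (9 baits, 1 above and 0 below) and of housekeeping genes (7 baits, 2 above and 1 below) were small. The forkhead list had 1 bait above and 3 below of 10, and 2 of its 10 differences were above 0. Foxc2, a forkhead gene of mesenchyme, had 41 and 37 calls in FNP and 46 and 46 in Mx. Foxc1, a factor of skull and eye mesenchyme, had 83 and 63 calls in FNP and 42 and 60 in Mx (0.54 ± 0.22, adjusted p = 0.999), and 70 and 90 in FNP and 70 and 71 in Mx of Ezh2cKO. The neural crest list had 3 above and 2 below of 10. Tfap2b, an AP-2 transcription factor gene, had 43 and 39 calls in FNP and 30 and 31 in Mx, and Ets1 had 21 and 29 in FNP and 19 and 12 in Mx. Prrx1, a homeobox gene of facial and limb mesenchyme, had 21 and 26 calls in FNP and 44 and 30 in Mx (-0.61 ± 0.29). The signalling list had 3 above and 5 below of 21, and among those below was Fst, an activin and BMP antagonist, with 6 and 5 calls in FNP and 16 and 8 in Mx.

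Baits of genes that mark other cell types were few and low, and calls at a bait do not measure how many cells of a type a sample held. Summed calls over the tested baits were 42 and 35 in FNP and 31 and 33 in Mx for the epithelial list, and 60 and 62 in FNP and 65 and 56 in Mx for the endothelial list. They were 92 and 73 in FNP and 80 and 76 in Mx for the muscle list, 27 and 27 in FNP and 38 and 30 in Mx for the neuronal and glial list, and 97 and 113 in FNP and 122 and 113 in Mx for the blood list. FNP and Mx did not overlap for the epithelial list, where FNP was higher, and the neuronal and glial list, where FNP was lower. Each of these sums came from 2 tested baits. Of all tested single baits, 15.6% had both FNP libraries above both Mx libraries on scaled calls and 16.7% had both below. The part of other cells in the results was not tested.

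The baits with the smallest p in the WT contrast missed the threshold and are given as values. Slc25a15, which encodes a mitochondrial ornithine carrier, had 9 and 13 calls in FNP and 28 and 30 in Mx (-1.37 ± 0.25 log2 units, adjusted p = 0.220). The Ezh2cKO libraries had 26 and 27 calls in FNP and 28 and 28 in Mx. Eif5a, a translation factor gene, had 6 and 8 calls in FNP and 19 and 17 in Mx in WT (-1.30 ± 0.25, adjusted p = 0.220). In Ezh2cKO it had 27 and 23 calls in FNP and 18 and 15 in Mx, the opposite order, and its difference between genotypes had the smallest adjusted p of all baits, 0.135. Mgat5b, which encodes a glycosyltransferase, had 4 and 5 calls in FNP and 11 and 13 in Mx.

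On the side with more calls in FNP, Olfr1499, an olfactory receptor gene, had 14 and 17 calls in FNP and 5 and 6 in Mx (1.43 ± 0.35, adjusted p = 0.745). Ramp3, a partner protein of peptide hormone receptors, had 12 and 7 calls in FNP and 2 and 3 in Mx. Crim1, which encodes a membrane regulator of BMP signals, had 29 and 25 calls in FNP and 10 and 15 in Mx, and Gfra1, a GDNF receptor gene, had 53 and 39 in FNP and 19 and 34 in Mx. Of the 12 named baits of smallest p on this side, 8 had an Ezh2cKO difference below 0 and 4 above, over a range of -0.54 to 0.39 log2 units. Ppp3r2, a calcineurin subunit gene, was the one whose groups did not overlap in the same direction in Ezh2cKO (1.65 in WT and 0.36 in Ezh2cKO). Of the 12 on the other side, 9 had an Ezh2cKO difference below 0 and 3 above. Ihh, which encodes the hedgehog signal of developing cartilage and bone, had 18 and 11 calls in FNP and 32 and 27 in Mx, and in Ezh2cKO also had fewer calls in FNP, with 18 and 20 in FNP and 22 and 37 in Mx.

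The same contrast in Ezh2cKO served as a reading in libraries that do not enter the WT difference. The spread of each bait was estimated over all 24 libraries, so both contrasts had the same standard error for a bait. Small p-values in both genotypes are therefore not independent. There 1 bait passed (0.00973%), a fragment without a gene name at chr8:4859863-4862330 with 6 and 6 calls in FNP and 35 and 25 in Mx (-2.08 ± 0.29, adjusted p = 0.0042). In WT it had 26 and 18 calls in FNP and 33 and 29 in Mx. At an unadjusted p under 0.05 the Ezh2cKO contrast held 661 baits (6.43%, with 3.2% higher in FNP and 3.23% lower) and the WT contrast 377 (3.67%), and 39 baits were in both. Of the 39, 22 differed in the same direction (14 with more calls in FNP and 8 with fewer) and 17 in opposite directions. The correlation of the WT and Ezh2cKO differences across the 10275 baits was r = 0.033, as a description, since baits share their libraries. The test of the difference between genotypes passed for 0 baits (0%), with 479 at an unadjusted p under 0.05 (4.66%).

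Baits whose groups did not overlap in the same direction in both genotypes numbered 328 with more calls in FNP (3.19%) and 298 with fewer (2.9%). Baits whose order was opposite numbered 279 with more calls in FNP in WT (2.72%) and 322 with fewer (3.13%). Baits with the same order in both genotypes and baits with opposite orders were thus similar in number. Msx2, Pitx1, Mab21l4, Gja1, S100a3 and Hk2 were among the 22 baits that shared a direction at an unadjusted p under 0.05, and the last 3 were chosen after their values were seen. Pitx1 was named for a small p within its list and Mab21l4 for its count of FNP-only pairs in WT. Their WT differences were thus part of the choice. Gja1, which encodes the gap junction protein connexin 43, had 63 and 52 calls in FNP and 39 and 42 in Mx (0.51 ± 0.18), and 58 and 49 in FNP and 36 and 40 in Mx of Ezh2cKO (0.62 ± 0.18). Mab21l4 had 45 and 51 calls in FNP and 22 and 25 in Mx (1.03 ± 0.35), and 32 and 33 in FNP and 9 and 14 in Mx of Ezh2cKO (1.63 ± 0.35). Md and PA2 WT libraries had 60, 51, 46 and 64 calls at Mab21l4. The WT FNP libraries were near those values, and the WT Mx libraries were below all of them. S100a3, a calcium-binding protein gene, had 48 and 40 calls in FNP and 24 and 25 in Mx, and Hk2, a hexokinase gene, had 12 and 8 in FNP and 3 and 4 in Mx.

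**Figure D4:**
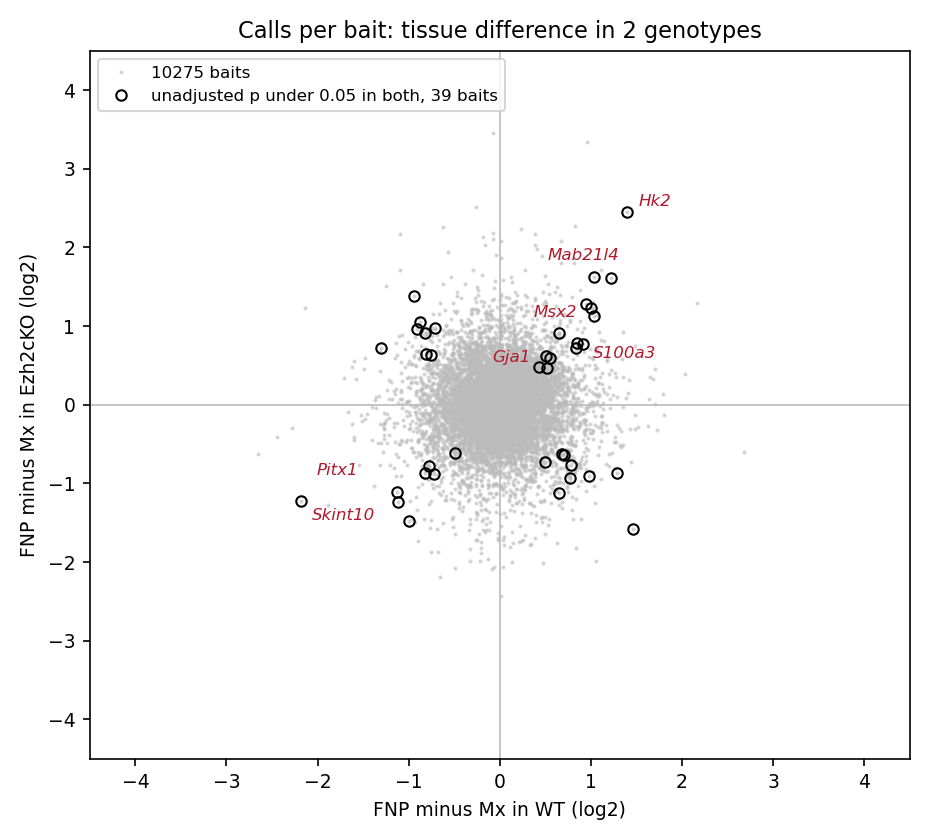
Difference in calls per bait, FNP minus Mx (log2), in WT (x axis) and Ezh2cKO (y axis) for 10275 baits (grey points). Open circles are the 39 baits at an unadjusted p under 0.05 in both genotypes, 22 of them with the same sign; Msx2, Gja1, S100a3, Mab21l4 and Hk2 lie above 0 and Pitx1 and Skint10 below 0 on both axes.

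Pairs called in both libraries of 1 tissue and in neither library of the other are called FNP-only and Mx-only here. Of 377321 cis pairs called in at least 1 of the 4 libraries, 7260 were FNP-only (1.92%), 7745 were Mx-only (2.05%) and 52721 were called in all 4. The tissue-only pairs were weaker and longer than the pairs called in all 4, but shorter than the typical called pair and close to it in score. Their median score was 6.10 in FNP-only and 6.11 in Mx-only pairs, against 8.34 for pairs called in all 4 libraries and 6.15 for all pairs. The median distance was 447 kb for FNP-only, 427 kb for Mx-only, 266 kb for pairs called in all 4 and 672 kb for all pairs. Many were called elsewhere. Md and PA2 WT libraries called 34.9% to 37.1% of the FNP-only pairs and 34.7% to 36.5% of the Mx-only pairs, against 28.4% to 29.5% of all pairs. These classes are unlike by definition, since a tissue-only pair needs calls in 2 libraries. Pairs called in only 1 of the 4 libraries made up 14.7% to 15.9% of all pairs for each library.

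Whichever tissue had called them in WT, tissue-only pairs were more often Mx-only than FNP-only in Ezh2cKO. Of the 7260 FNP-only pairs, 225 (3.10%) were FNP-only and 304 (4.19%) were Mx-only in Ezh2cKO. Of the 7745 Mx-only pairs, 225 (2.91%) were FNP-only and 334 (4.31%) were Mx-only. Over all 377321 pairs the shares were 1.45% FNP-only and 2.12% Mx-only. The ratio of FNP-only to Mx-only in Ezh2cKO was 0.740 for FNP-only pairs of WT, 0.674 for Mx-only pairs of WT and 0.684 for all pairs, and the differences between these ratios were not tested. The 225 pairs that were FNP-only in both genotypes touched 252 baits, at most 2 pairs at any bait, and the 334 pairs that were Mx-only in both touched 341 baits, at most 4.

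The baits with the most tissue-only pairs had them on both sides. Hjurp, a centromere protein gene, had 28 FNP-only and 27 Mx-only pairs and 431 to 479 calls per WT library of the 4. Zik1, a zinc-finger gene, had 18 FNP-only and 19 Mx-only pairs, and Ugt1a1, a bilirubin-conjugating enzyme gene, had 23 FNP-only and 15 Mx-only pairs. One-sided baits were smaller. The fragment of Fam219a and Dnaic1 had 13 FNP-only and 0 Mx-only pairs, with 58 and 54 calls in FNP and 40 and 29 in Mx. Mab21l4 had 10 FNP-only and 1 Mx-only pair. The Hdac10 fragment at chr15:89127373-89129831, named for a deacetylase gene, had 0 FNP-only and 13 Mx-only pairs, with 16 and 38 calls in FNP and 82 and 46 in Mx. Another bait named for Hdac10, chr15:89122006-89126954, was not one-sided, with 2 FNP-only and 4 Mx-only pairs. Plxnb2, a semaphorin receptor gene on a nearby fragment, had 0 FNP-only and 10 Mx-only pairs, with 25 and 24 calls in FNP and 44 and 48 in Mx. In Ezh2cKO, the Hdac10 fragment at chr15:89127373-89129831 had 37 and 32 calls in FNP and 40 and 51 in Mx, and Plxnb2 had 39 and 35 in FNP and 44 and 33 in Mx.

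The starts of 4 genes whose baits are described by partner are printed here, to set the promoters with more calls in FNP (Msx2, Foxc1, Gja1) beside one with more in Mx (Prrx1). They were chosen after their values were seen. Each sequence is the 250 bases before the RefSeq start site (GRCm38.p6), written 5′ to 3′ on the gene's own strand, with CG dinucleotides in capitals, because CG-rich starts are the usual sites of Polycomb binding. The regions are chr13:53472781-53473030 for Msx2 on the minus strand, chr13:31806396-31806645 for Foxc1 on the plus strand, chr10:56377050-56377299 for Gja1 on the plus strand and chr1:163313651-163313900 for Prrx1 on the minus strand. The last 3 lie inside their baits, and the Msx2 start site lies 290 bases outside the fragment named for it.
Msx2: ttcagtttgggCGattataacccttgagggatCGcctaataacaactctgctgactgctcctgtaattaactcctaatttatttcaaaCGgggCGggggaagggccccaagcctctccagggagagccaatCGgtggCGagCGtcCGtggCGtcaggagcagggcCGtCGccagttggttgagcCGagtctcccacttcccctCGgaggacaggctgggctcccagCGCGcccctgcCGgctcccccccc
Foxc1: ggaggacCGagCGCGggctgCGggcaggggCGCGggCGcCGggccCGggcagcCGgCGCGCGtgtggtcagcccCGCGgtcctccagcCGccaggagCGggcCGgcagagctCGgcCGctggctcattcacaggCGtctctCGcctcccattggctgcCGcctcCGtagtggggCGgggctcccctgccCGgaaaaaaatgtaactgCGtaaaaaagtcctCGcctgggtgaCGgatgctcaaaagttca
Gja1: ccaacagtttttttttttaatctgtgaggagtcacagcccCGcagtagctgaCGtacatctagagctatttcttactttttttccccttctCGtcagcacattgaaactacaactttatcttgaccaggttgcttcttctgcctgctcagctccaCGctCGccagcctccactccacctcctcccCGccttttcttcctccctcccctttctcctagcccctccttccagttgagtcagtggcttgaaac
Prrx1: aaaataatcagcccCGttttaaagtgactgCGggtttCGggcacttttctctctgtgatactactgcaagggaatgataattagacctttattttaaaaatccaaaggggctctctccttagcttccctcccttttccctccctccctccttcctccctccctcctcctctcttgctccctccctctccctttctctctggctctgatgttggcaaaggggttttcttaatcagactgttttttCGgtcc
Foxc1 held 29 CG, more than 93.2% of the 32851 starts in the table, and Msx2 held 16. Gja1 held 6, the median of all starts, and Prrx1 held 4. At least 1 CG was present in 92.1% of the starts. The 3 genes with more calls in FNP thus span the range from a CG-rich to an ordinary start, and no comparison of CG content between tissues was made.

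The partners of Msx2 lay on 1 side, toward higher coordinates. Its bait, chr13:53473070-53474118, was called with 45 fragments in at least 1 of the 4 libraries, 107 to 592 kb away, and 12 of them were called in all 4. Both of its FNP-only pairs, to chr13:53720954-53721824 at 248 kb and chr13:53772318-53774250 at 300 kb, were also called in both Ezh2cKO FNP libraries and in neither Ezh2cKO Mx library. The Md and PA2 libraries called the first in 0 and the second in 1 of 4. Between 140 and 310 kb Msx2 had 27 and 20 calls in FNP and 15 and 17 in Mx in WT, and 23 and 31 in FNP and 18 and 17 in Mx in Ezh2cKO. In that window, which like the others here was chosen after the calls were seen, FNP was above Mx in every library of both genotypes. Between 100 and 140 kb the groups overlapped in WT, with 10 and 5 calls in FNP and 2 and 7 in Mx, and did not overlap in Ezh2cKO, with 10 and 10 in FNP and 6 and 2 in Mx.

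Prrx1 had fewer calls in both FNP libraries than in either Mx library. Its bait, chr1:163292847-163320894, had 6 Mx-only and 0 FNP-only pairs, between 27 and 539 kb away. Between 250 and 400 kb it had 1 and 2 calls in FNP and 10 and 4 in Mx in WT. Ezh2cKO had 0 and 3 calls there in FNP and 4 and 3 in Mx, where the groups touched. Most of its calls lay between 400 and 650 kb, with 17 and 19 in FNP and 27 and 21 in Mx in WT, and 17 and 15 in FNP and 20 and 18 in Mx in Ezh2cKO, so FNP was below Mx there in both genotypes. Within 100 kb it had 3 and 4 calls in FNP and 6 and 5 in Mx in WT, and 5 and 5 in FNP and 6 and 3 in Mx in Ezh2cKO. Of the 6 Mx-only pairs, 1 was Mx-only in Ezh2cKO too, to chr1:163617503-163621333 at 313 kb, and it was called in 0 of 4 Md and PA2 libraries.

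**Figure D5:**
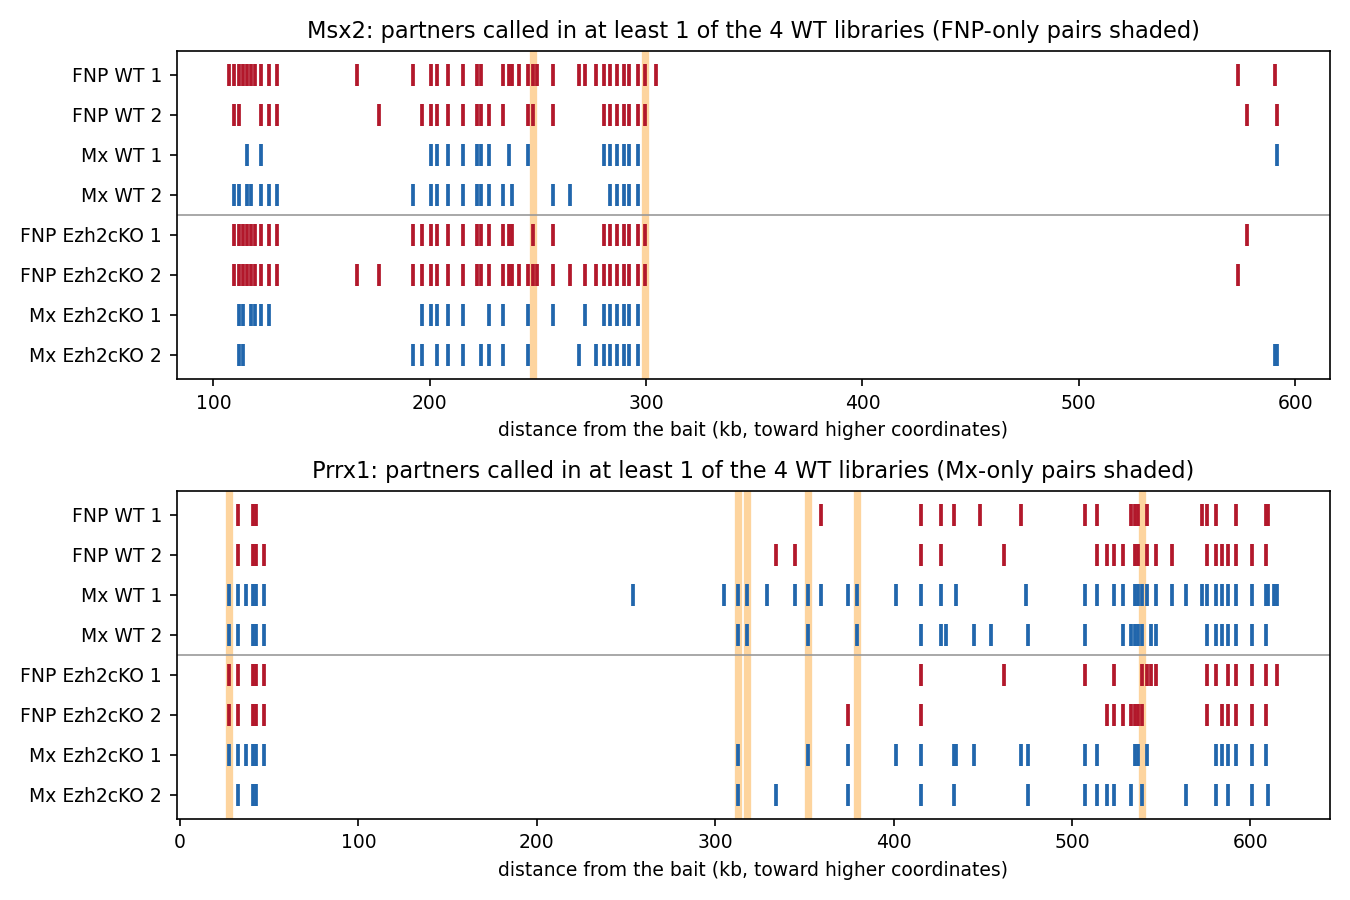
Partner fragments of the Msx2 bait (top) and the Prrx1 bait (bottom) called in at least 1 of the 4 WT libraries, by distance from the bait in kb, with 1 line of ticks per library (FNP red above Mx blue, WT above Ezh2cKO) and 1 tick per call; Prrx1 partners are those within the range drawn. Shaded lines mark the 2 FNP-only pairs of Msx2 at 248 and 300 kb, both called in both Ezh2cKO FNP libraries and in neither Ezh2cKO Mx library, and the 6 Mx-only pairs of Prrx1.

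Some tissue-only pairs of other facial genes recurred in Ezh2cKO and others did not. Of all FNP-only pairs in WT, 3.10% were FNP-only and 4.19% Mx-only in Ezh2cKO. Of all Mx-only pairs in WT, 4.31% were Mx-only and 2.91% FNP-only in Ezh2cKO. Pou3f3 had 3 FNP-only pairs in WT, of which those at 1807 and 879 kb were FNP-only in Ezh2cKO. Each of those was also called in 2 of 4 Md and PA2 WT libraries. Lhx8 had 2 FNP-only pairs, and the 1 at 3202 kb was FNP-only in Ezh2cKO and called in 0 of 4 Md and PA2 WT libraries. Foxc1 had 5 FNP-only and 0 Mx-only pairs, 518 to 909 kb from its bait, and none was FNP-only in Ezh2cKO. Tfap2b had 4 FNP-only pairs, Gja1 had 5 and S100a3 had 8, and none of these was FNP-only in Ezh2cKO either. Ets1, a neural crest specifier gene, had 6 FNP-only pairs and 1 Mx-only pair, all 225 to 463 kb away. Alx4 had 2 FNP-only pairs, of which the 1 at 116 kb was Mx-only in Ezh2cKO. Alx1 had 38 partners and no tissue-only pair, although 11 partners were called in all 4 libraries. Dlx6 had 6 Mx-only pairs, 5 of them toward lower coordinates at -1038 to -903 kb, and 1 of those, at -1013 kb, was Mx-only in Ezh2cKO. The pair at -1013 kb was also called in 3 of 4 Md and PA2 WT libraries. Lhx6 had 3 Mx-only pairs, and the 1 at 42.6 kb was Mx-only in Ezh2cKO and called in 1 of 4 Md and PA2 WT libraries. Pitx1 had 1 Mx-only pair, at 391 kb, that no Ezh2cKO, Md or PA2 library called.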

How the data were processed

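Each deposited file holds the interactions called in 1 library: 2 HindIII fragments and a score. The build, GRCm38 (mm10), is named in the submitters' processing notes. The deposited file names tie the authors' score to CHiCAGO, and no score is under 5; its settings and the aligner were not stated. Without read counts, no count model could be used. Groups followed the titles. The members, gene lists and named-gene rule were chosen with earlier results of these data known. The rule named the 12 baits of smallest p each way (none passed), the 10 with most tissue-only pairs each way, all tested frontonasal and maxillary baits and up to 4 of each other list. Some genes of the lists are not reported here; list counts and medians include them.

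A pair of 2 baits counted for both. Baits (22203) took protein-coding RefSeq names by start site, or by gene end, inside the fragment or within 1 kb; 16571 were named. For each bait, log2 of calls plus 0.5 per 100000 cis calls of its library was the response in a two-sided limma test (version 3.58.1, under R 4.3.3; a mean for each of 12 groups over 24 libraries, empirical Bayes with trend), with Benjamini-Hochberg adjustment over 10275 baits. The code was tested on simulated data. Because of that scaling, a shift shared by all baits would not show. Alternatives covered pseudocount, call filter, scaling, score minimum, distance, fit samples, replicate block and left-out libraries.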

Additional observations from a re-analysis of the deposited data

How the results depend on the processing

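The count of baits past the adjusted threshold was 0 under every setting that kept all 4 libraries: pseudocount 2, a mean of at least 10 or 2 calls, scaling to all calls, median centring, scores of 7 or more, pairs within 2 Mb, pairs at 100 kb or more, fits over 8 or 4 libraries, and counting a pair for its first-position bait only (chosen after seeing the data). With the replicate number as a replicate block it was also 0, with 380 at an unadjusted p under 0.05; same-numbered libraries deviated with r = -0.0958 over 10275 baits, and the labels do not pair them. Leaving out 1 library gave 0 to 2: without FNP replicate 1 it was 1 (Rnase9, with 6 and 0 calls in FNP and 8 and 11 in Mx), and without FNP replicate 2 it was 2 (Hdac10 at -1.91, and Fgf7, with 0 and 6 in FNP and 7 and 10 in Mx). Those fits assume that the lone library varies like the other groups. Counts at an unadjusted p under 0.05 were 214 with a mean of at least 10 calls, 682 with at least 2 and 127 with scores of 7 or more.

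FNP-only pairs numbered 649 and Mx-only pairs 700 with scores of 7 or more, and 1751 and 1844 where the other tissue also had no call within 10 kb of the partner. Without 1 library FNP-only pairs ranged between 15132 and 66177 and Mx-only pairs between 16272 and 67634, since fewer libraries then define the class. With scores of 7 or more the mean Jaccard index was 0.335 for replicates and 0.371 for the crossed combinations.

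Small differences of facial genes changed sign, and the cause was not tested. Leaving out 1 library gave ranges of -0.62 to 0.066 log2 units for Pax3, -0.075 to 0.28 for Six2, -0.10 to 0.17 for Msx1, -0.28 to 0.10 for Crabp1, -0.028 to 0.31 for Zic1, -0.34 to 0.020 for Pou3f3, -0.39 to 0.43 for Barx1, -0.051 to 0.14 for Osr2, -0.66 to 0.31 for Meis2 and -0.34 to 0.40 for Dlx1. Pairs at 100 kb or more gave -0.048 for Barx1 and 0.011 for Lhx6, scores of 7 or more gave -0.059 for Osr2, and pairs within 2 Mb gave -0.30 for Dlx1 and -0.14 for Lhx8. First-position counting gave -0.52 for Dlx1. With 2 libraries a group and unknown read depth, the median 95% interval of a bait's difference reached 0.81 log2 units to each side.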
